A study of Homo sapiens with 4 samples.

Results

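The genes described here are 7 long noncoding RNAs (lncRNAs) with known regulatory roles: MALAT1, NEAT1, PURPL, LNCAROD, PVT1, CCAT1 and H19. They were picked by name, with their values in the comparison below already known. Of the 58735 genes in the deposited table, 6 carry one of these symbols in GENCODE release 29. CCAT1 has no gene of that name in the release, and the table has no value for it. The 6 stand among 16054 genes that the release types as long noncoding. Expression was measured by RNA sequencing in HCT116, a line established from a human colorectal carcinoma. Cells edited at ID3 (sgID3, genotype ID3 knockout, 2 libraries) were set against cells with a control guide (sgCtrl, genotype wildtype, 2 libraries). The labels do not say whether the libraries come from separate cultures, clones or pools, so p-values measure only the spread between these libraries, which may be technical. The stated interest of the study is ID3 in immune escape of colorectal cancer.

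A lncRNA is transcribed and often spliced like an mRNA but is not known to be translated, and it acts through its sequence, its structure or the act of its transcription. MALAT1 collects in nuclear speckles, which store splicing factors, and NEAT1 is the RNA scaffold of paraspeckles, nuclear bodies built with the proteins NONO, SFPQ and PSPC1. PURPL is induced by p53 and has been described in colorectal cancer cells as a brake on basal p53, LNCAROD is a transcript of the DKK1 neighbourhood, and PVT1 and CCAT1 lie on either side of MYC. H19 is an imprinted RNA expressed in fetal tissue and in some tumours. ID3 is a helix-loop-helix protein without a DNA-binding region, and it keeps E proteins from binding E-boxes, short DNA motifs with the letters CANNTG.

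Promoter sequences are shown for PURPL and LNCAROD, picked because their log2 fold changes were the lowest of the tested members. Promoter activity was not measured. RefSeq promoter windows (GRCh38.p14, 250 bases before to 50 after a start, 300 in all) were at hand for 4 of the 7 genes. The PURPL window lies at chr5:27472042-27472341, plus strand, and holds 2 abutting p53 response element units, in capitals.
PURPL: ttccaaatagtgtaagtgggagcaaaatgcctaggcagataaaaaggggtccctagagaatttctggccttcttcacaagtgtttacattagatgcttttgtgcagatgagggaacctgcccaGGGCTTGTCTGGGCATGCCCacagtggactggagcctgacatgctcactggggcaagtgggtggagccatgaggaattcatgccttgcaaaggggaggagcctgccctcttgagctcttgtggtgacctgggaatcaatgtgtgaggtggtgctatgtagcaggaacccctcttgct
The pair begins 127 bases before the start. A single unit of the p53 consensus, searched on both strands, occurs in 6.63% of the 35116 promoter windows of the same length. A pair of abutting units occurs in 6 windows, or 0.0171%, that of PURPL among them. The pattern counted is the one marked in the window shown, so its rarity is a description and supports nothing. Of the p53 network genes listed for this work, 16 had a window and 0 held such a pair, which says nothing about sites outside it. PURPL also has 3 E-boxes, none overlapping the pair.

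The first LNCAROD window is shown with its 2 E-boxes in capitals, since E-boxes are the sites that E proteins read. It lies at chr10:52470484-52470783, minus strand.
LNCAROD: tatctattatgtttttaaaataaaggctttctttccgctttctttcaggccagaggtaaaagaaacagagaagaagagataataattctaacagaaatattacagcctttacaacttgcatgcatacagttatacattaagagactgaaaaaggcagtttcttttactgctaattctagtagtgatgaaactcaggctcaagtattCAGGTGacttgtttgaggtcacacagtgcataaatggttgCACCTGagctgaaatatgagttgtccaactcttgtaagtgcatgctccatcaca
These boxes begin 44 and 4 bases before the start, and a second LNCAROD start has 1. Other GENCODE transcripts of LNCAROD start at 52561105 and 52755409, outside these windows. Both MALAT1 windows hold 1 E-box and the H19 window holds 3. An E-box stands in 68.7% of all windows, searched on both strands, so its presence sets none of these genes apart. Motif matches are letters only, and binding was not measured.

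The third sequence concerns how MALAT1 may have entered these libraries, which were made from RNA caught on poly-T beads. MALAT1 has no ordinary poly(A) tail. Its mature end is formed by a cut after a tract of A bases encoded in the gene, and the released fragment becomes the small RNA mascRNA. The stretch chr11:65506058-65506170 (GRCh38, plus strand, from a GENCODE transcript of MALAT1) has that run of 13 A in capitals.
MALAT1: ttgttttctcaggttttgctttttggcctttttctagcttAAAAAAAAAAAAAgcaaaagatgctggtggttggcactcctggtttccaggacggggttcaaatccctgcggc
The mascRNA entry of the annotation (RF01684) starts 6 bases after the run. The MALAT1 values below therefore describe the RNA as caught, and capture through this tract was not measured apart from the level.

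ID3 itself was checked first, as RNA only, since the edit and the protein were not measured here. Its sgID3 mean was 47.9% of the sgCtrl mean. FPKM are fragments scaled to exonic length and to a total set for each library, which was not the summed reads. ID3 had 37.98 and 41.6 FPKM in the sgID3 libraries, against 84.5 and 81.5 FPKM in the sgCtrl libraries. It fell with a log2 fold change of −1.04 (SE 0.06, limma adjusted p = 0.0047). Reads worked back from the FPKM summed to 15349866 and 15872240 in sgID3, and to 15929150 and 16258079 in sgCtrl. Of 11 colorectal epithelial markers 9 had a mean of at least 1 FPKM, CDX1 was at 0 and VIL1 near it. ELF3 (56.9% of the sgCtrl mean), CLDN4 (69.7%), CDH1 (72.2%) and KRT18 (81.4%) were called lower in sgID3 and EPCAM (115.1%) higher. KRT8, KRT19, CLDN7 and CDX2 were not called. Of 7 fibroblast markers only COL1A1 reached a mean of 1 FPKM, with 4.68 and 4.65 FPKM in sgID3 and 4.38 and 5.92 FPKM in sgCtrl. Of 4 endothelial markers 0 did. The summed FPKM of 7 leukocyte markers was 0.654 and 0.199 in sgID3 and 0.488 and 0.363 in sgCtrl, with PTPRC and FCGR3A at 0. The groups differ in more than the guide: of the coding genes on Y, 8 reached 3 or more reads in both sgID3 libraries and had 0 reads in both sgCtrl libraries. The guide and this difference between the cell populations cannot be told apart in any comparison here.

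Set against sgCtrl, the sgID3 libraries held less of 4 of the 6 RNAs by margins that ranged from small to large. PURPL stood at 19.2% and LNCAROD at 28.5% of the sgCtrl mean, MALAT1 at 71.5% and NEAT1 at 84.8%. PVT1 stood at 104.6%. H19 was near the lower limit of the libraries, with its mean set by 1 sgCtrl library. In bulk RNA, fewer cells that make an RNA and less of it per cell cannot be told apart. In 5 of the 6 the sgID3 and sgCtrl values did not overlap, all 5 lower in sgID3. H19 is among these by 0.091 against 0.09996 FPKM only, and it was not tested. The tested ones are MALAT1, NEAT1, PURPL and LNCAROD. Over all tested genes 66.2% did not overlap between the groups, 36.8% higher and 29.4% lower. Among tested lncRNA genes 48.5% did not overlap, 21.2% higher and 27.2% lower. Since the genes were listed with these values known, the values are given as a description with no test, and the counts support nothing.

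**Figure D1:**
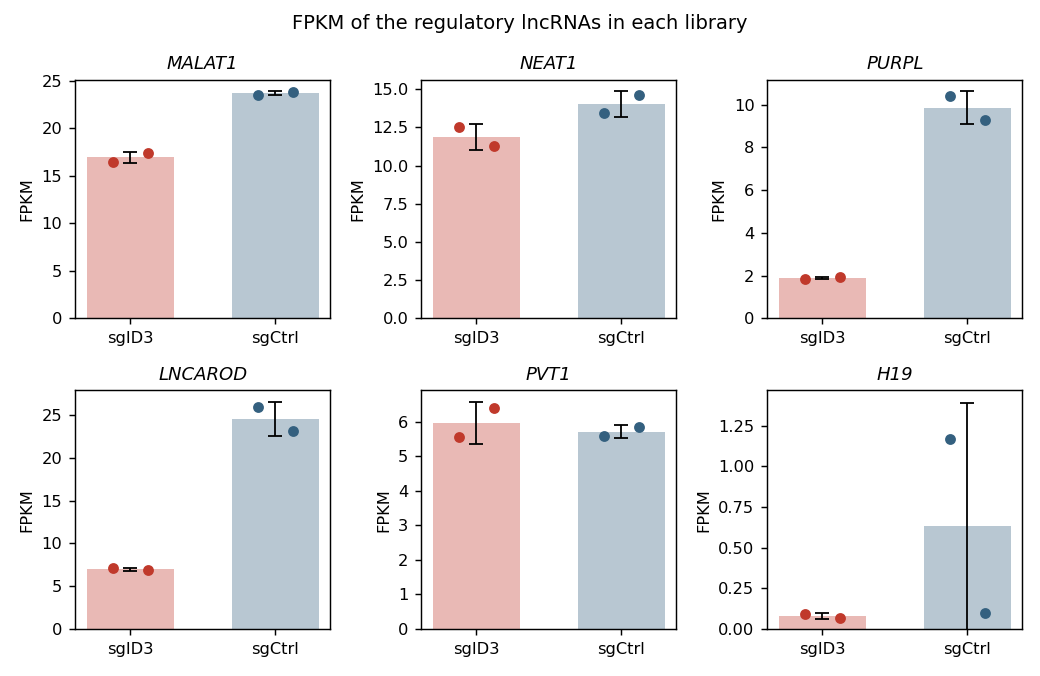
FPKM (linear axes from 0) of 6 lncRNAs in sgID3 and sgCtrl HCT116 cells. Points are libraries, bars are means and error bars are SD (n = 2 each). PURPL and LNCAROD in sgID3 lie far below sgCtrl, PVT1 overlaps, and the H19 mean in sgCtrl rests on 1 library at 1.17 FPKM, with an error bar cut off at 0.

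Of the 5 members that passed the filter (a mean of at least 1 FPKM), PURPL, LNCAROD and MALAT1 were past the limma threshold of 0.05 on the adjusted p, all lower. The same threshold was passed by 21.2% of all tested genes, 12.3% higher and 8.87% lower, and by 9.71% of the tested lncRNA genes, 4.21% higher and 5.5% lower. Of the protein-coding genes 23.4% passed, 13.8% higher and 9.55% lower. Again nothing is read from the members' count. MALAT1 was not past the threshold with any 1 library left out, and PURPL and LNCAROD were not without sgID3 replicate 1 or without sgCtrl replicate 2, where no gene of the whole table was (3589 and 3993 genes had an unadjusted p under 0.05). On the log2(FPKM + 1) scale, PURPL had the lowest log2 fold change of the 1164 tested lncRNA genes and LNCAROD the 3rd lowest. MALAT1 ranked 132nd from the lowest, NEAT1 341st and PVT1 689th. By mean level per length across the 4 libraries MALAT1 ranked 17th, LNCAROD 25th, NEAT1 33rd, PURPL 102nd, PVT1 103rd and H19 2839th among the 8512 lncRNA genes above 0. The 6 RNAs together took 4.76% and 4.59% of all lncRNA reads in sgID3, against 5.88% and 5.90% in sgCtrl. The lncRNA class as a whole took 0.997% and 1.03% of reads in sgID3 and 1.11% and 1.16% in sgCtrl.

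The nuclear body RNAs come first. MALAT1 (ENSG00000251562, chromosome 11, 65497688 to 65506516, plus strand, GRCh38) had 16.5 and 17.4 FPKM in sgID3, from 2209 and 2468 reads, against 23.5 and 23.9 FPKM in sgCtrl, from 3434 and 3637 reads. Both sgID3 libraries were below both sgCtrl libraries, and libraries of a group lay close together. The log2 fold change was −0.46 (SE 0.05), between means of 16.9 ± 0.616 FPKM in sgID3 and 23.7 ± 0.232 FPKM in sgCtrl (SD, n = 2 each). MALAT1 is annotated as a single exonic block of 8829 bases. Exons of antisense genes cover 4.49% of it, and no source used here says whether the libraries keep the strand.

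NEAT1 (ENSG00000245532, chromosome 11, 65422774 to 65445540, plus strand) had 12.5 and 11.3 FPKM in sgID3, from 4314 and 4139 reads, against 13.4 and 14.6 FPKM in sgCtrl, from 5050 and 5749 reads. The groups did not overlap, but the gap between them was narrower than the gap within either. The log2 fold change was −0.22 (SE 0.08), between means of 11.9 ± 0.847 FPKM in sgID3 and 14.02 ± 0.853 FPKM in sgCtrl. NEAT1 was not past the threshold here, but it was with limma-voom on the reads (−0.31, SE 0.06) and when the filter was raised to a mean of 5 FPKM. NEAT1 makes a short polyadenylated form and a long one that builds paraspeckles and has no poly(A) tail. The annotation has 8 transcripts of 512 to 22743 bases, and a gene value over 22767 exonic bases cannot tell the forms apart. The longest transcript holds an encoded run of 22 A, 4676 bases from its 3′ end, and capture through that run was not measured. The ratio of MALAT1 to NEAT1 FPKM was 1.32 and 1.54 in sgID3 and 1.75 and 1.63 in sgCtrl.

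Since both are caught without, or partly without, a tail, other RNAs that lack a long poly(A) tail were set beside them. RN7SL2, an RNA of the signal recognition particle, had 713.5 and 1977 FPKM in sgID3 and 1725 and 736.7 FPKM in sgCtrl. It differed 2.77-fold within sgID3 and 2.34-fold within sgCtrl, and MALAT1 differed 1.05-fold and 1.01-fold within the same pairs. RN7SL2 was named after its values were seen, and nothing on MALAT1 capture is read from it. Of the 26 listed RNAs of this kind 5 passed the filter, and 3 of them fell, where 8.87% of all tested genes were lower. The 3 that fell were the histone genes HIST1H2AC (−0.86, SE 0.08, limma adjusted p = 0.0075), HIST1H2BK (−0.49, SE 0.08) and HIST1H1C (−0.52, SE 0.11), which are known also to make polyadenylated forms. HIST1H1C lost the call without the trend, and without a filter 1 gene of the list passed. The other 2 of the 5 lay above 0, up to 0.46. The median of the 5 was −0.49, against 0.03 over all tested genes, and over the 17 listed RNAs with a value above 0 it was −0.12. A part of capture in the MALAT1 and NEAT1 values was not tested.

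The protein genes of both nuclear bodies were mostly higher in sgID3 or not past the threshold. With any 1 library left out, 0 to 6 of the 134 tested genes of all lists passed, so every list count below rests on all 4 libraries. Of 25 paraspeckle protein genes 11 rose, none fell and 14 did not pass, with a median log2 fold change of 0.24. Over all tested genes 12.3% were higher and 8.87% lower, with a median of 0.03. Each list count below stands beside these shares. With the filter at a mean of 5 FPKM, 3138 of 7596 genes passed, 2033 higher, and 18 of 24 paraspeckle genes were higher. No list was tested, so the counts are a description. SFPQ, a core paraspeckle protein that binds NEAT1, had 86.1 and 82.7 FPKM in sgID3 and 54.7 and 55.1 FPKM in sgCtrl, a rise of 0.61 (SE 0.05, limma adjusted p = 0.0069). DAZAP1 (0.61, SE 0.05), HNRNPA1 (0.73, SE 0.08) and RBM14, which is needed to assemble paraspeckles (0.47, SE 0.05), rose as well. HNRNPA1 has many processed pseudogenes that can share its reads. The other core proteins NONO (0.16, SE 0.05) and PSPC1 (−0.04, SE 0.10) did not pass, and NONO stood at −0.06 after quantile normalization. Scaling to the summed reads or quantile normalization left 8 of the 25 higher and none lower. The count of higher genes was 6 without the trend in the fit and 3 without a filter.

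Of 25 nuclear speckle protein genes 10 rose, 1 fell and 14 did not pass (median 0.18). U2AF2, which recognises the tract before the 3′ splice site, rose by 0.48 (SE 0.05, limma adjusted p = 0.0098), the RNA export factor gene ALYREF by 0.72 (SE 0.08) and the splicing factor gene SRSF7 by 0.58 (SE 0.07). SRSF1, whose product binds MALAT1, was the one that fell, to 34.8 and 33.5 FPKM in sgID3 against 45.4 and 41.4 FPKM in sgCtrl (−0.34, SE 0.06), though 56.6% of its exonic bases are shared with another gene model. SON, a scaffold protein of the speckle, did not pass (0.13, SE 0.05). The median was 0.06 after quantile normalization and 0.11 when scaled to the summed reads. The count of higher genes was 6 after quantile normalization, 6 without the trend and 1 without a filter, and SRSF1 lost its call without the trend or the filter.

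Genes that process, modify or degrade such RNAs had smaller differences. Of 14 tested, 5 rose and none fell (median 0.11): RPP30, a subunit of the RNase P that cuts the MALAT1 end (0.35, SE 0.06), the nuclear exosome gene EXOSC10 (0.29, SE 0.06, with 39.3% of its exonic bases under antisense exons), ZC3H18 (0.37, SE 0.07), the m6A writer gene METTL14 (0.26) and ELAC2, which trims the mascRNA end (0.23). METTL16, which binds the MALAT1 triple helix, did not pass (0.13, SE 0.06). When scaled to the summed reads 2 genes of the list passed, with a median of 0.05. Without the trend 1 gene passed, and without a filter none did.

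MALAT1 and NEAT1 lie 52148 bases apart, so their shared surroundings were examined. Within 200 kb of MALAT1, 17 other genes were tested, 1 higher, 1 lower and 15 not past the threshold. Over all tested genes 12.3% were higher and 8.87% lower, so nothing is read from this count. DPF2, a subunit gene of a chromatin remodelling complex, rose by 0.23 (SE 0.06, limma adjusted p = 0.048) and lost the call under 6 of the settings that kept all libraries. The lncRNA AP001362.2 fell by 0.71 (SE 0.18) on few reads, with 0.800 and 1.36 FPKM in sgID3 and 2.57 and 2.18 FPKM in sgCtrl, and also lost the call under 6 such settings. FRMD8, the coding gene beside NEAT1, did not pass (−0.21, SE 0.08).

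**Figure D2:**
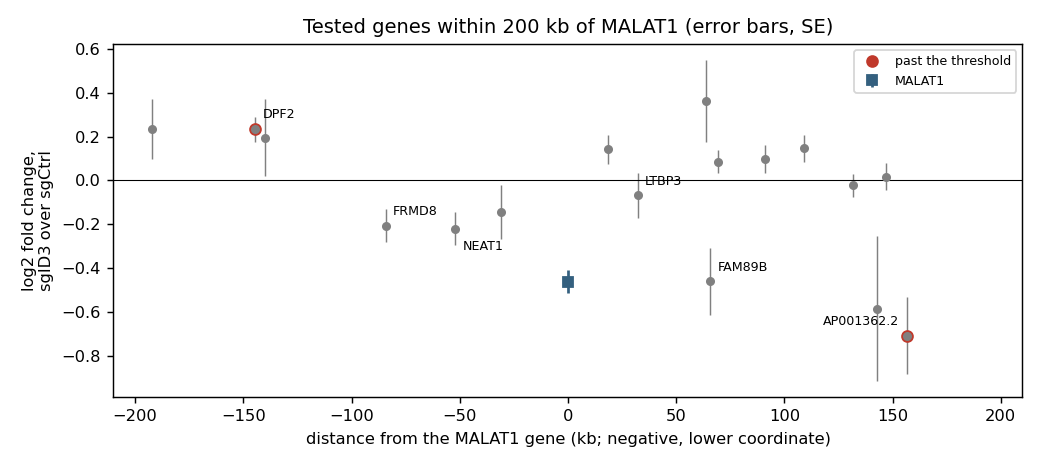
Log2 fold change (sgID3 over sgCtrl, log2(FPKM + 1) scale) of the tested genes within 200 kb of MALAT1 against distance from it in kb. Error bars are SE from the limma fit, circles ringed in colour passed the threshold and the square is MALAT1. DPF2 (0.23) and AP001362.2 (−0.71) are the neighbours that passed.

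PURPL, the p53-induced RNA, had the lowest log2 fold change of the tested members. PURPL (ENSG00000250337, chromosome 5, 27472292 to 27496401, plus strand) had 1.85 and 1.93 FPKM in sgID3, from 74 and 82 reads, against 10.4 and 9.31 FPKM in sgCtrl, from 454 and 424 reads. The groups lay far apart beside the spread within them. The log2 fold change was −1.91 (SE 0.08) on the log2(FPKM + 1) scale, between means of 1.89 ± 0.0578 FPKM in sgID3 and 9.86 ± 0.78 FPKM in sgCtrl. Because the added 1 compresses low values, the estimate was −2.32 with a pseudocount of 0.1, and −2.44 with limma-voom on the reads. No other annotated gene shares its 2638 exonic bases. The single other gene within 200 kb was at 0 in all libraries, so the neighbourhood gave no further value.

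Of the p53 network genes listed around it, more fell than rose. Of 22 listed genes 8 fell, 1 rose and 13 did not pass, with a median of −0.14. Over all tested genes 8.87% were lower and 12.3% higher. This list overlaps p53 targets already known to be lower in these libraries. TP53INP1, a stress-induced p53 cofactor gene, had 6.68 and 6.33 FPKM in sgID3 against 17.97 and 18.02 FPKM in sgCtrl (−1.34, SE 0.06, limma adjusted p = 0.0036). CDKN1A, which codes for p21, an inhibitor of the cell cycle, fell by 0.66 on the log2 scale (SE 0.07). ZMAT3, an RNA-binding protein gene, fell by 0.55 (SE 0.07). MDM2, the gene of the ligase that degrades p53, fell by 0.38 (SE 0.05). MYBBP1A, the gene of the p53-binding protein through which PURPL has been described to act, was the one that rose, with 26.7 and 27.5 FPKM in sgID3 and 22.8 and 22.1 FPKM in sgCtrl (0.26, SE 0.05), and it did not pass after quantile normalization or scaling to the summed reads. ELAVL1 (0.14, SE 0.05) did not pass. Without the trend 6 genes of the list were lower, without a filter 1 was, and none was higher in either.

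Other lncRNAs tied to p53 gave little. Of 14 listed, 12 were in the annotation and 4 passed the filter, and only GAS5, a snoRNA host gene, rose (0.22, SE 0.05, limma adjusted p = 0.037). GAS5 did not pass after quantile normalization, after scaling to the summed reads, without the trend or without a filter. With the filter at a mean of 5 FPKM, the 2 genes of the list that remained were higher. MIR34AHG, the host of a p53-induced microRNA, had 1.07 and 1.19 FPKM in sgID3 and 1.41 and 1.304 FPKM in sgCtrl and did not pass (−0.15, SE 0.14).

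LNCAROD and its neighbour DKK1 were both lower in sgID3. LNCAROD (ENSG00000231131, chromosome 10, 52450874 to 52755409, minus strand) had 7.13 and 6.87 FPKM in sgID3, from 217 and 222 reads, against 25.98 and 23.1 FPKM in sgCtrl, from 862 and 801 reads. The sgID3 libraries were nearly equal and lay far below both sgCtrl libraries. The log2 fold change was −1.67 (SE 0.07), and −1.87 with limma-voom on the reads. The means were 7.001 ± 0.181 FPKM in sgID3 and 24.5 ± 2.03 FPKM in sgCtrl. No exonic base of LNCAROD is shared with another annotated gene. DKK1, which codes for a secreted antagonist of Wnt signalling, lies 132832 bases from the annotated span. It had 119.4 and 122.7 FPKM in sgID3 against 254.1 and 232.0 FPKM in sgCtrl, and fell by 1.00 on the log2 scale (SE 0.07, limma adjusted p = 0.0050). DKK1 was the single neighbour within 200 kb that passed the filter. The lncRNA differed by more than the coding gene: the ratio of DKK1 to LNCAROD FPKM was 16.7 and 17.8 in sgID3, against 9.78 and 10.04 in sgCtrl.

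Of 14 listed Wnt antagonist and DKK1 receptor genes, DKK1 itself included, 6 passed the filter, 3 fell and none rose (median −0.22). The count that fell was 4 after quantile normalization, 2 with the replicate block, 1 without the trend and 1 without a filter. Besides DKK1 these were KREMEN1, a DKK1 receptor gene (−0.42, SE 0.08), and the Wnt co-receptor gene LRP5 (−0.22, SE 0.05, limma adjusted p = 0.048). Both lost the call without the trend or the filter, and LRP5 also with the replicate block. NOTUM (0.15, SE 0.11) and KREMEN2 (0.15, SE 0.07) did not pass.

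PVT1 and CASC19, a gene model over the CCAT1 interval, lie on either side of MYC and showed small differences. PVT1 (ENSG00000249859, chromosome 8, 127794533 to 128101253, plus strand) had 5.55 and 6.40 FPKM in sgID3, from 462 and 566 reads, against 5.58 and 5.84 FPKM in sgCtrl, from 507 and 554 reads. Both sgCtrl libraries lay between the sgID3 libraries, so the groups overlapped. The log2 fold change was 0.05 (SE 0.08), which leaves a range of −0.16 to 0.27 (95% interval). Its sign was not fixed: it was −0.04 without sgID3 replicate 2 and −0.01 with limma-voom. MYC, 53099 bases away, had 94.2 and 97.2 FPKM in sgID3 and 87.04 and 84.1 FPKM in sgCtrl and did not pass (0.16, SE 0.05, limma adjusted p = 0.087). PVT1 FPKM was 5.89% and 6.59% of MYC FPKM in sgID3 and 6.41% and 6.95% in sgCtrl. CASC11 and GSDMC, further genes of the region, had at most 3 and 8 reads in any library.

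For CCAT1, a transcript named for colon cancer, the nearest value is that of another gene model. RefSeq places CCAT1 at 127207382 to 127219268 on chromosome 8 (GRCh38.p14), inside the span of CASC19 in GENCODE 29, 127072694 to 127227541. CASC19 is annotated with 84 transcripts over 22208 exonic bases, so its value is no measure of CCAT1. CASC19 had 1.05 and 1.14 FPKM in sgID3, from 353 and 406 reads, against 0.923 and 0.962 FPKM in sgCtrl, from 339 and 369 reads. The groups did not overlap but lay close, and the log2 fold change of 0.11 (SE 0.15) did not pass.

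**Figure D3:**
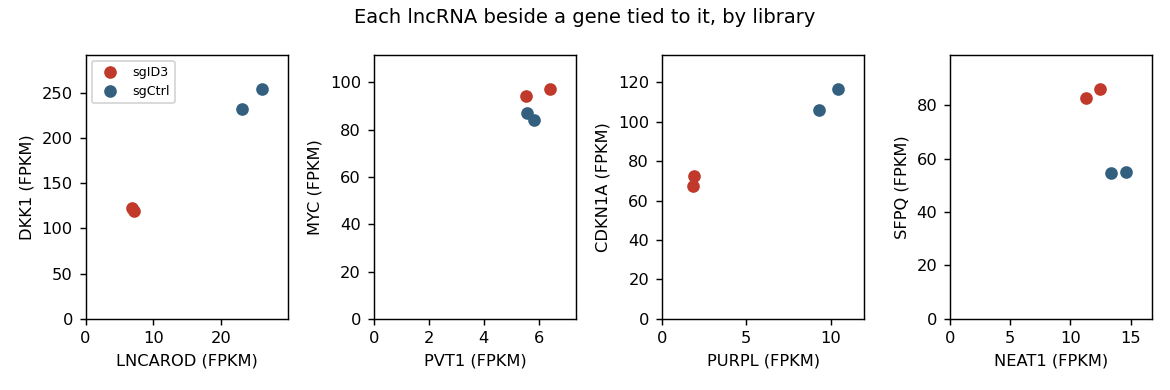
FPKM of a gene tied to each lncRNA (vertical axes) against FPKM of that lncRNA (horizontal axes), 1 point a library, for sgID3 and sgCtrl. LNCAROD with DKK1 and PURPL with CDKN1A are both lower in sgID3, PVT1 overlaps between the groups beside MYC, and NEAT1 is lower while SFPQ is higher.

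H19 showed a difference between libraries rather than between groups. H19 (ENSG00000130600, chromosome 11, 1995176 to 2001470, minus strand) had 0.091 and 0.0643 FPKM in sgID3, from 4 and 3 reads, against 1.17 and 0.09996 FPKM in sgCtrl, from 56 and 5 reads. Only sgCtrl replicate 1 stood above a handful of reads, and the other sgCtrl library was level with sgID3. The log2 fold change in the fit without a filter was −0.52 (SE 0.37), and −0.03 without sgCtrl replicate 1. H19 did not pass the filter and is not among the tested genes. IGF2, the growth factor gene that shares its imprinting control, had 25 and 28 reads in sgID3 and 35 and 21 reads in sgCtrl, with no like excess in 1 library, though most of its exonic bases are shared with another gene model. MRPL23, the nearest coding neighbour that passed the filter, had 8.20 and 4.57 FPKM in sgID3 and 8.26 and 6.31 FPKM in sgCtrl (−0.20, SE 0.26).

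Of 23 imprinted genes and IGF2-binding protein genes linked with H19, 12 passed the filter, 3 rose, 1 fell and 8 did not pass (median 0.01). MEST rose by 0.49 (SE 0.06, limma adjusted p = 0.0128), PEG10 by 0.45 (SE 0.07) and PLAGL1, a zinc finger gene of the imprinted network, by 0.33 (SE 0.08). CDKN1C, the gene of the growth inhibitor p57 on the same chromosome arm as H19, fell by 0.41 (SE 0.07). After quantile normalization, and also after scaling to the summed reads, 2 were higher and 2 lower and the median was −0.05. PLAGL1 lost the call under both, without the trend, with the replicate block and without a filter, where no gene of the list passed. CTSD, an enzyme gene of the lysosome from the wider region, fell by 0.61 (SE 0.08), with 41.7% of its exonic bases shared with another gene model.

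Other well-known lncRNAs showed both directions. Of 24 tested, 6 rose, 3 fell and 15 did not pass (median 0.12). Among all tested lncRNA genes 4.21% were higher and 5.5% lower, with a median of −0.02. With the filter at a mean of 5 FPKM, 36 of 129 lncRNA genes were higher and 31 lower. Of the 12 listed that then remained, 8 were higher and 1 lower. UCA1, a lncRNA raised in urothelial and other cancers, had 24.1 and 20.9 FPKM in sgID3 against 51.3 and 53.5 FPKM in sgCtrl (−1.19, SE 0.08, limma adjusted p = 0.0051). BLACAT1 (−0.80, SE 0.12) and FTX, a transcript of the X inactivation centre (−0.63, SE 0.15), fell too, and antisense exons cover 44.3% of the FTX exonic bases. FTX lost the call after quantile normalization, with the replicate block and without a filter, and BLACAT1 lost it without a filter. SNHG1 (0.54, SE 0.05) and DANCR (0.40, SE 0.06), both snoRNA hosts, rose. The split was 3 higher and 4 lower when scaled to the summed reads, 3 and 3 without the trend, and 1 and 1 without a filter. TUG1 (0.18, SE 0.05) and NORAD (−0.13, SE 0.06), which are among the abundant members of the list, did not pass.

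**Figure D4:**
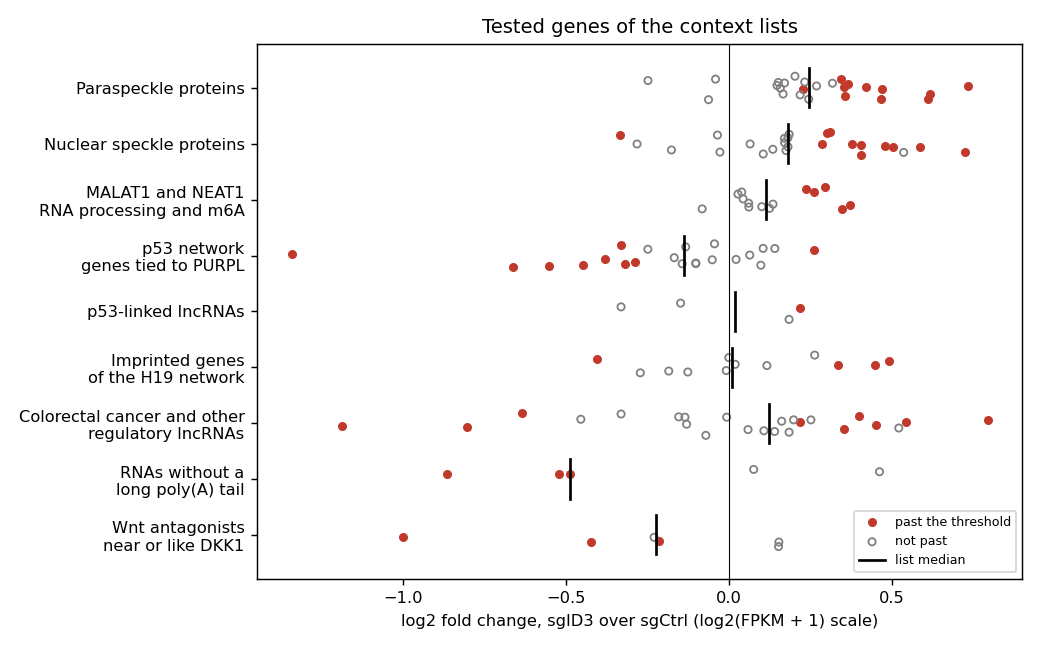
Log2 fold change (sgID3 over sgCtrl, log2(FPKM + 1) scale) of every tested gene in 9 lists tied to the lncRNAs. Filled points passed the limma threshold, open points did not and bars are list medians. Paraspeckle (0.24) and speckle (0.18, or 0.06 after quantile normalization) protein medians lie above 0, and the p53 network (−0.14) and DKK1 (−0.22) list medians lie below it.

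Genes with the most similar profile were found by the root mean square difference between centred log2(FPKM + 1) values over the 4 libraries, among 7595 candidates with a mean of at least 5 FPKM. With 4 libraries in 2 groups, this mostly orders genes by the size of their group difference. For PURPL the nearest was the lncRNA AC105460.1 on chromosome 4 (0.053), with 46.2 and 46.7 FPKM in sgID3 and 175.7 and 175.8 FPKM in sgCtrl. It was followed by TSPAN1 (0.096) and FGFBP1 (0.113). For LNCAROD they were TSPAN1 (0.055), SLC1A3 (0.092) and WNT16 (0.099). For MALAT1 they were ITGB5 (0.0099), SCG2 (0.011) and TIMP2 (0.012). NEAT1 lay nearest to GCA (0.014), DLGAP4 (0.015) and SUOX (0.017), and PVT1 to HDAC7 (0.0094), BTBD6 (0.012) and GTF2IRD1 (0.015).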

How the data were processed

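The authors deposited FPKM values, fragments scaled to exonic length and to a total set for each library, for 58735 genes. The totals implied by the values were 15165186 and 16093443 in sgID3 and 16530203 and 17266761 in sgCtrl, which are not the summed reads. The submitters' processing notes name edgeR 3.22.5, DESeq2 1.20.0, featureCounts 1.5.0-p3, StringTie 1.3.3b and HISAT2 2.0.5, and the build hg19, with no role for any of them. Per the labels' protocols, RNA was caught on poly-T beads. The identifiers are those of GENCODE release 29 on GRCh38, which gave symbols, types and coordinates.

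FPKM times exonic length gave whole multiples of a single step for 100% of values above 0 (tolerance 0.02 reads), and so the reads. Libraries of a group differed by more than sampling noise (chi-square per degree of freedom 4.01 within sgID3 and 3.98 within sgCtrl) and were kept apart.

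Groups were compared with limma (version 3.58.1, R 4.3.3), using lmFit and eBayes with a trend, on log2(FPKM + 1). The test was two-sided and took in 13608 genes whose mean FPKM reached 1, with Benjamini-Hochberg adjustment over all of them and a call at an adjusted p under 0.05. H19 values come from a fit without this filter. Differences are sgID3 minus sgCtrl and understate those of low genes. The fit was also run on simulated reads with a single fixed spread between libraries. That setting is simpler than these data, and no result here rests on it. With 2 libraries a group, the smallest p of an exact permutation test is 0.333, so none was run.

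The lncRNAs, the 9 gene lists and the alternatives were chosen with earlier results of these data known. Genes named are the lncRNAs, genes tied to them by position or textbook function, neighbours within 200 kb that passed, up to 3 genes per list with the smallest adjusted p, and the 3 nearest profiles. Further list and neighbour genes (METTL14, ELAC2, GAS5, MIR34AHG, PLAGL1, KREMEN2, NOTUM, BLACAT1, FTX, TUG1, NORAD, RN7SL2 and FRMD8) were named after their values were seen.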

Additional observations from a re-analysis of the deposited data

How the results depend on the processing

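PURPL, LNCAROD, MALAT1 and NEAT1 stayed lower in sgID3 under all 15 alternatives. Their log2 fold changes ran from −2.44 to −1.83 for PURPL, −1.87 to −1.59 for LNCAROD, −0.55 to −0.43 for MALAT1 and −0.31 to −0.15 for NEAT1, and that of PVT1 from −0.04 to 0.14. The count of genes past the threshold was 2886 (58.2% higher). It was 1789 without the trend, 4644 with limma-voom, 420 without a filter, 2515 (48.5% higher) with quantile normalization and 2730 (43.4% higher) scaled to the summed reads. The count of lncRNA genes was 113. It was 10 without a filter, 67 with a mean FPKM of at least 5 and 111 (33.3% higher) scaled to the summed reads. Of the 134 tested genes of the 9 lists 55 passed, 36 higher. This was 31 without the trend, 9 without a filter, 43 (22 higher) with quantile normalization and 46 (24 higher) scaled to the summed reads. Leaving out 1 library gave 0 to 399 genes, 0 to 15 lncRNA genes and 0 to 6 list genes. The count over all genes was 0 without sgID3 replicate 1 or without sgCtrl replicate 2 (3589 and 3993 at an unadjusted p under 0.05), 56 without sgID3 replicate 2 and 399 without sgCtrl replicate 1. The group left with 1 library is assumed to vary like the other. The cause of the changes with a library left out, or with another filter or fit, was not tested. Scaling to the summed reads multiplies each library by the ratio of its FPKM-implied total to its summed reads. That ratio was 0.988 and 1.014 in sgID3 and 1.038 and 1.062 in sgCtrl. The median log2 fold change over all tested genes went from 0.025 to −0.032. The labels do not say that replicate numbers pair libraries, and the deviations of same-numbered libraries correlated at 0.033 over genes. With the replicate number as a block 2708 genes, 113 lncRNA genes and 52 list genes passed. Depth limits H19, at 3 to 5 reads in 3 libraries.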
